A study of Mus musculus with 8 samples.

Results

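In mouse bone marrow-derived macrophages, 959 chromatin regions were called as accessible after treatment with lipopolysaccharide (LPS), the endotoxin of Gram-negative bacteria, and not before it, both with and without the transcription factor NFAT5. The peaks called in 8 libraries on the 21 main chromosomes were merged wherever they shared at least 1 base, which gave 87260 regions. A region was counted as gained when it held a called peak in all 4 LPS libraries and in none of the 4 untreated libraries. The 959 gained regions were 1.1% of all regions. The regions were chosen by the presence and absence of called peaks, so their gain with LPS is a description and was not tested.

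The assay was ATAC-seq, in which a transposase inserts sequencing adapters into accessible DNA and stretches dense in insertions are called as peaks. Bone marrow cells of wild-type (WT) mice and of NFAT5-deficient mice (Nfat5 KO) were cultured for 7 days in 25% conditioned medium of L929 cells, the source of the macrophage growth factor M-CSF. The 4 groups were WT untreated, Nfat5 KO untreated, WT with E. coli LPS at 0.3 ng/ml for 2 h and Nfat5 KO with the same LPS treatment, with 2 biological replicates each. The labels do not say how the Nfat5 gene was disrupted.

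LPS is recognised by the receptor TLR4 with its partners CD14 and MD-2, and signals through the adaptors MyD88 and TRIF to the transcription factors NF-kB, AP-1 and IRF3. In macrophages these factors act on promoters and, more often, on distant enhancers, some of which become accessible after stimulation. NFAT5 belongs to the same Rel family of transcription factors as NF-kB and is best known for the response to osmotic stress.

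The 4 LPS lists held between 54027 and 57691 peaks and the 4 untreated lists between 56346 and 60117. The lists give positions only, so the read depth behind each peak is unknown and peak width is the only quantity that can be compared. Among macrophage identity genes, 12 of 18 with a listed start had that start inside a region called in all 8 libraries, against 3 of 47 for markers of T cells, B cells, neutrophils, dendritic cells, erythroid cells, stroma and mast cells. Over genes with a region and no gained one, the share was 58.4% of 12708. The marker counts also include genes with a listed start and no region, so they were not on the same base. The macrophage count was thus not shown to exceed that of genes in general. Nfat5 itself had 7 assigned regions, of which 4 were called in all 8 libraries and none was gained. Peak lists do not show whether the Nfat5 gene product was missing.

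The gained regions that held a gene start are shown first because their regulatory sequence can be read directly. A listed start of a protein-coding gene lay inside 10 of the 959 gained regions (1.04%), against 9.98% of all regions and 1.23% of the 810 regions called in all 4 untreated and no LPS library. The genes were Tnfrsf9, Olr1, Ampd3, Bco2, Tgtp2, Tnip1, Slc7a7, H2-M2, LOC115488765 and Nox1. Starts of the long noncoding RNAs AW112010 and A630012P03Rik lay inside 2 more. For 8 of the 10 coding genes, the whole stretch of 250 bases before at least 1 listed start lay inside the gained region. The sequences below are the 250 bases before the start, 5′ to 3′ on the gene's strand, from RefSeq on GRCm38.p6. Capitals mark matches on either strand to GGAANNNCC, a spelling of the NF-kB motif, TGANTCA, a spelling of the AP-1 motif, or GAAANNGAA, a spelling of the interferon-stimulated response element.
Tnip1, chr11:54962941-54963190, minus strand: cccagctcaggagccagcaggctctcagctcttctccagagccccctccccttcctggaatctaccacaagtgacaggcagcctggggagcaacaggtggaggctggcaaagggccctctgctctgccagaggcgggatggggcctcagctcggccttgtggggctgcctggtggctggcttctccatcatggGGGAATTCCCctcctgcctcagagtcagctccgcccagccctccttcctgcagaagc
Tnfrsf9, chr4:150927749-150927998, plus strand: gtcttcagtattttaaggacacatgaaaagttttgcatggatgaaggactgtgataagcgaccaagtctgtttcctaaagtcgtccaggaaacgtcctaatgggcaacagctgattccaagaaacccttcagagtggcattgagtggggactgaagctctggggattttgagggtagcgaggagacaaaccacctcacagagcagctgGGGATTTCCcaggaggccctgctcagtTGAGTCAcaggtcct
Slc7a7, chr14:54417703-54417952, minus strand: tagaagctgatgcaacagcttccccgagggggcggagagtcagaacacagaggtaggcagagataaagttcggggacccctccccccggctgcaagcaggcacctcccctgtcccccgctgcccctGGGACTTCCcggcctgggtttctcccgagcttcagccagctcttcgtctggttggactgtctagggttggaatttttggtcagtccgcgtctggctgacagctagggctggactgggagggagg
H2-M2, chr17:37483555-37483804, minus strand: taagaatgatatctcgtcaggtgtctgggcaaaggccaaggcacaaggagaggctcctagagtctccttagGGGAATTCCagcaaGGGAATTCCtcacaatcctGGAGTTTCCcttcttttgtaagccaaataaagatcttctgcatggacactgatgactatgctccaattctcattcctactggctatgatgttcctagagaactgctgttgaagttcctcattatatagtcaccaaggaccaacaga
Nox1, chrX:134111855-134112104, minus strand: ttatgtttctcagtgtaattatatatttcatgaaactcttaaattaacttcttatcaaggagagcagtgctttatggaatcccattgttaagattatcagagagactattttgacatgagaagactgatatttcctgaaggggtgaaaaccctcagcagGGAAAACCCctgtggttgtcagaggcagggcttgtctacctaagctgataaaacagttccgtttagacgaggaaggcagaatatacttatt
Olr1, chr6:129507166-129507415, minus strand: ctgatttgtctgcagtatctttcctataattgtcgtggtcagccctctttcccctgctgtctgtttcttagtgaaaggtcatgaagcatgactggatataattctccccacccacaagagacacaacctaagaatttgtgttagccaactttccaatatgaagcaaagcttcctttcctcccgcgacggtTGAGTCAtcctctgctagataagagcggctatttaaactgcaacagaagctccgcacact
AW112010, chr19:11050567-11050816, minus strand: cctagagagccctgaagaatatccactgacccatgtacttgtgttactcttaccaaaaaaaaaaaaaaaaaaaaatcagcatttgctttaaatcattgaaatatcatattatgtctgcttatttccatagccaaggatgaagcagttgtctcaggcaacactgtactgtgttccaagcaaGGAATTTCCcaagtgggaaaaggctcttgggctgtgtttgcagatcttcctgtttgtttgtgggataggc
Tgtp2, chr11:49064213-49064462, minus strand: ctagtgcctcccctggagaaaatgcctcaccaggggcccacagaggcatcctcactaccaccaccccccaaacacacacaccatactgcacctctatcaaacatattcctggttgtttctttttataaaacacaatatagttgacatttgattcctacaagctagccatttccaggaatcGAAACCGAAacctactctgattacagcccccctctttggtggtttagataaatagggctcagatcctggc

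Tnip1 encodes a partner of the NF-kB inhibitor A20, and its gained region measured 434 and 482 bases in the 2 WT LPS libraries and 372 and 438 bases in the 2 KO LPS libraries. Matches on both strands form the run of capitals in its window. Tnfrsf9 encodes the costimulatory receptor 4-1BB. Its region measured 514 and 368 bases in WT and 397 and 175 bases in KO, with an NF-kB spelling 42 bases and an AP-1 spelling 15 bases before the start. The region at Nox1, which encodes a superoxide-producing NADPH oxidase, measured 462 and 466 bases in WT and 368 and 440 bases in KO, and that at the amino acid transporter gene Slc7a7 measured 393 and 568 bases in WT and 406 and 269 bases in KO. At Olr1, the gene of an oxidised LDL receptor, the widths were 622 and 731 bases in WT and 383 and 632 bases in KO, and the window held an AP-1 spelling but not the NF-kB one. Tgtp2 encodes an interferon-inducible GTPase. Its window, of which 122 bases lay inside the gained region, held the response element spelling 70 bases before the start.

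Of the 8 coding genes whose window lay wholly inside a gained region, 6 (H2-M2, LOC115488765, Nox1, Slc7a7, Tnfrsf9 and Tnip1) held GGAANNNCC on either strand, a spelling present in 16.3% of 21263 windows of coding genes. Another spelling, GGANNTTCC, was in H2-M2 among the 8 and in 3.62% of all windows, and the looser GGNNNNNCC, which contains both, was in 7 of the 8 and in 72.2% of all windows. TGANTCA was in Olr1 and Tnfrsf9 and in 6.13% of all windows. GAAANNGAA was in Bco2 among the 8, in Tgtp2, and in 6.84% of all windows. These spellings were chosen after the data were seen, and longer ones with the outer G of the NF-kB site were tried first. The sets are small, matches are letters and not bound sites, and the windows of Slc7a7 overlap one another.

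Gained regions also lay upstream of some microRNA genes known from the macrophage response to LPS. The mature sequences are printed as RefSeq gives them on GRCm38.p6, 5′ to 3′, with the seed (bases 2 to 8), which pairs with target messages, in capitals. They were chosen after the positions were seen, and they show which of these microRNAs share a seed.
mmu-miR-146a-5p: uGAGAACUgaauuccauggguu
mmu-miR-146b-5p: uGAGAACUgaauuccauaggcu
mmu-miR-155-5p: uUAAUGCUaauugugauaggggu
mmu-miR-221-3p: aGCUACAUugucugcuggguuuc
mmu-miR-222-3p: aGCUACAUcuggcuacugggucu
miR-146a and miR-146b share 1 seed and target the adaptors Irak1 and Traf6 as part of negative feedback on TLR signalling. The region nearest Mir146b lay 1.54 kb upstream of its hairpin and measured 349 and 299 bases in WT and 311 and 333 bases in KO. The region nearest Mir146, the gene of miR-146a, lay 35.8 kb upstream and measured 227 and 313 bases in WT and 189 and 197 bases in KO. miR-221 and miR-222 share another seed and come from neighbouring hairpins. A gained region 13.3 kb upstream of Mir222 and 13.9 kb upstream of Mir221 measured 353 and 378 bases in WT and 272 and 336 bases in KO. miR-155 promotes inflammatory activation, and the nearest of 3 gained regions upstream of its hairpin was 108 kb away. Mir21a and Mir147, also known from this response, had no gained region nearer than 429 and 495 kb. Across the 1005 microRNA hairpins compared, 1 overlapped a gained region, 3 lay within 2 kb of one and 24 within 20 kb. The same counts were not made for other regions, so nearness to microRNA genes was not set against a background.

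Gained regions lay mostly in gene bodies and away from gene ends. Of the 959, 518 (54.0%) were wholly inside a protein-coding gene, against 47.5% of all 87260 regions, 43.8% of the 36009 regions called in all 8 libraries and 51.9% of the 810 regions called in all 4 untreated and no LPS library, here called lost. Only 48 (5.01%) lay at most 1 kb from a gene end on either side, against 16.0% of all regions, 27.5% of the regions called in all 8 libraries and 6.42% of the lost regions. In both measures the gained regions were nearer to the lost regions than to the constantly called ones. A further 101 gained regions (10.5%) were over 100 kb from any protein-coding gene, close to the share over all regions (8763 of 87260), with 8.52% of the lost regions and 6.38% of those called in all 8 libraries. The gene table gives gene bodies without exons, so exonic and intronic positions were not separated.

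**Figure D1:**
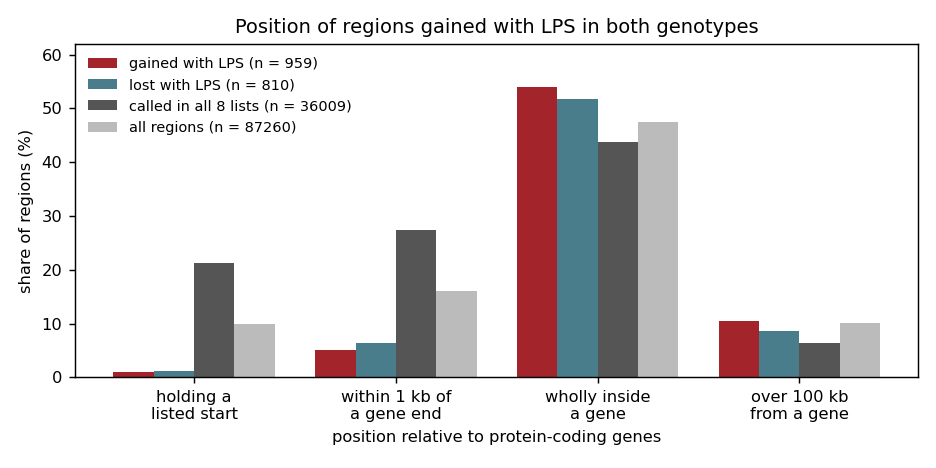
Share of regions (y axis, %) by position relative to protein-coding genes (x axis), for 959 gained, 810 lost, 36009 constantly called and all 87260 regions. Bars for gained and lost regions are close in the first 2 positions (1.04% and 1.23% holding a listed start) and far below the 21.3% of regions called in all 8 libraries.

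Each region within 100 kb of a protein-coding gene was assigned to the nearest, which placed 858 of the 959. Of these, 153 lay upstream, 107 downstream and 10 across a gene end, and 70 lay outside a gene with no listed strand. The upstream share of the first 2 counts was 58.8%, against 54.2% over all regions and 55.2% over lost regions. By chromosome, the gained share ran from 0.834% of the regions on chromosome 5 to 1.39% on chromosome 9, with none of 109 on chromosome Y. When all annotated genes, noncoding ones included, were used, 62.6% of gained regions were inside a gene, against 62.2% of lost regions, 51.1% of regions called in all 8 libraries and 55.8% of all regions.

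Gained regions were assigned to 756 of the 16617 genes that had any region (4.55%). Of these genes, 672 had 1 gained region, 68 had 2, 14 had 3, and Ikzf1 and Lpp had 4. The genes with a gained region had a median of 10 regions of any kind, against 3 for the other genes. A lost region was also assigned to 9.66% of them, against 3.94% of the other genes. Where a start was listed, 403 of 601 (67.1%) had it inside a region called in all 8 libraries, against 58.4% of the other genes.

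Gained regions were more frequent at the listed genes of the LPS response than over all assigned regions. Over 10 lists of LPS response genes, 57 of 1762 assigned regions (3.23%) were gained, against 1.09% of all assigned regions, and they fell on 45 of 249 genes. At the same lists 15 regions (0.851%) were lost, against 0.944% of all assigned regions. Over 6 other lists, which cover MHC class II, osmotic stress, macrophage identity, alternative activation, cell cycle and housekeeping, 7 of 715 regions (0.979%) were gained. Over markers of 7 other cell types, 4 of 172 (2.33%) were gained, at Cd5, Flt3, Dcn and Pdgfrb. The lists were chosen with earlier results of these data known, which may raise these shares. They were described by these counts and were not tested against other genes.

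**Figure D2:**
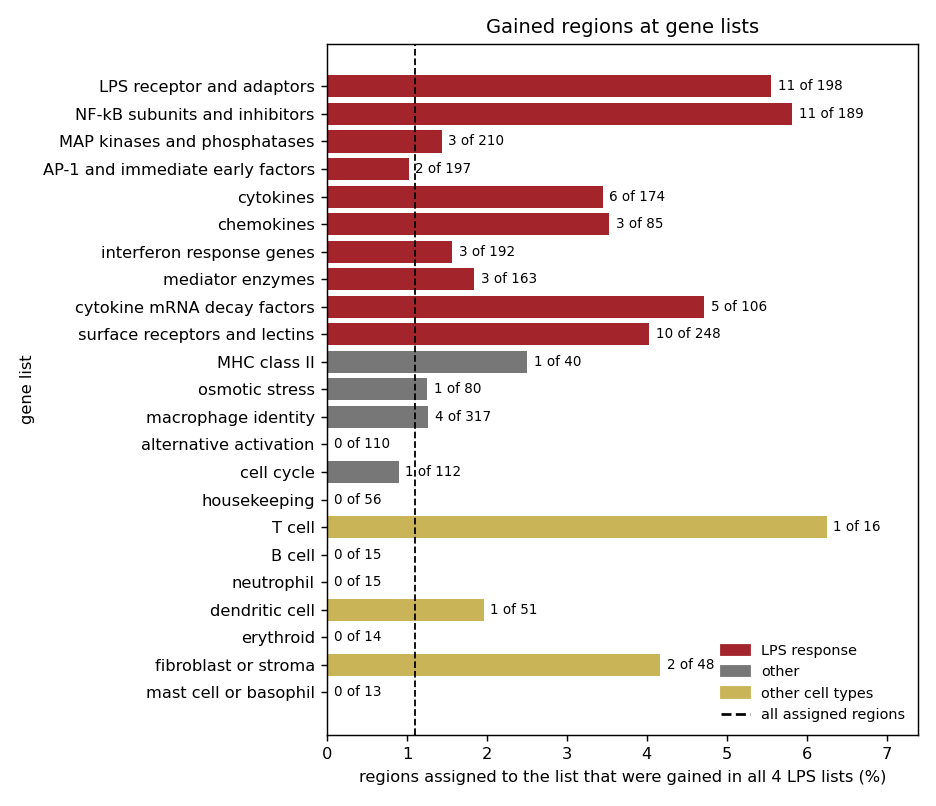
Share of the regions assigned to each of 23 gene lists that were gained in all 4 LPS libraries (x axis, %), with the number gained and the number of regions beside each bar. The dashed line is the share over all assigned regions, 1.09%. The longest bars are the T cell list, which rests on 1 of 16 regions, NF-kB subunits and inhibitors (11 of 189) and LPS receptor and adaptors (11 of 198), and the alternative activation, housekeeping, B cell, neutrophil, erythroid and mast cell lists have no gained region.

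At receptors and adaptors, 8 of 29 genes had a gained region (27.6%, against 4.55% of all genes with a region). Of their 198 assigned regions, 11 were gained (5.56%, against 1.09% of all assigned regions). Tlr4, the LPS receptor, had 1 of its 19 regions gained, inside the gene, at 605 and 406 bases in WT and 444 and 597 bases in KO. Irak2 and Irak3 encode kinases of the MyD88 pathway, the latter an inhibitor of it. The wider of the 2 Irak2 regions measured 423 and 423 bases in WT and 270 and 406 bases in KO, and it lay inside the gene 22.9 kb from its start. Traf1, an adaptor of TNF receptors, had 2 gained regions inside the gene, the wider with 689 and 302 bases in WT and 426 and 423 bases in KO. Tbk1, the kinase that activates IRF3, had a region 0.359 kb from its start, inside the gene, with 595 and 522 bases in WT and 314 and 255 bases in KO. Both WT values exceeded both KO values at Tbk1, whereas the genotypes overlapped at Tlr4 and Traf1. Traf2, Tirap and Pik3ap1 were the other genes of this list.

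In the list of NF-kB subunits and inhibitors, 6 of 19 genes had a gained region (31.6%, against 4.55%), with 11 of 189 regions in all (5.82%, against 1.09%). The 6 included Tnip1, described above, and Tnfaip8, which encodes neither a subunit nor an inhibitor of NF-kB. Nfkbiz encodes the nuclear inhibitor family member IkB-zeta, needed for a set of secondary response genes. The region 0.609 kb from Nfkbiz was among the widest gained regions, with 1288 and 1338 bases in WT and 1541 and 769 bases in KO, and the genotypes overlapped. Other gained regions were nearest to Nfkbiz at distances of 53.7, 170.1 and 221.4 kb. Nfkb1, the gene of p105 and p50, had 2 inside the gene, and the one at chr3:135640063-135640802 measured 700 and 574 bases in WT and 720 and 519 bases in KO. Rel, which encodes c-Rel, had 1 inside the gene with 377 and 413 bases in WT and 294 and 229 bases in KO. Tnfaip3 encodes the ubiquitin-editing inhibitor A20, and its 3 gained regions all lay upstream, 30.6, 52.9 and 62.3 kb from the start. The farthest was the widest, with 822 and 855 bases in WT and 748 and 536 bases in KO.

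Among factors that control the decay of cytokine messages, 3 genes had 5 gained regions of 106 assigned (4.72%, against 1.09%). Zc3h12c, a ribonuclease gene of the Regnase family, had 3, and the one 0.951 kb downstream of the gene was the widest of its list, with 1830 and 1114 bases in WT and 1756 and 859 bases in KO. Zfp36l2 encodes a protein that binds AU-rich elements, and Hnrnpd encodes another such protein. The gained region assigned to Zfp36l2 measured 379 and 226 bases in WT and 351 and 201 bases in KO, so its replicates differed more than its genotypes.

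Among cytokine genes, 6 of 174 regions were gained (3.45%, against 1.09% of all assigned regions). They were assigned to Tnf, Il12a, Il12b, Inhba (67.6 kb upstream) and Tnfsf15. The Tnf region spanned the end of the gene away from its start, 2.37 kb from that start, and measured 958 and 419 bases in WT and 940 and 622 bases in KO. Il12a and Il12b encode the p35 and p40 chains of interleukin-12. The Il12a region, inside the gene, measured 954 and 507 bases in WT and 625 and 431 bases in KO. The 2 Il12b regions lay upstream, at 26.6 and 17.5 kb. The farther one, chr11:44372400-44373431, measured 416 and 348 bases in WT and 749 and 822 bases in KO, the reverse of the more frequent order, and the nearer one measured 342 and 284 bases in WT and 371 and 309 bases in KO. Chemokine genes had 3 of 85 regions gained (3.53%, against 1.09%), near Cxcl13, Ccl9 and Ccl5. The Cxcl13 region, 21.3 kb upstream, measured 593 and 493 bases in WT and 512 and 487 bases in KO, and the genotypes overlapped.

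Surface receptors and lectins had a gained region at 10 of 32 genes (31.2%, against 4.55%), with 10 of 248 regions gained (4.03%, against 1.09%). Clec4e encodes Mincle, a receptor for mycobacterial glycolipids, and its region spanned the end of the gene away from the start, 8.08 kb from it. The Clec4e region measured 1070 and 1924 bases in WT and 1310 and 1206 bases in KO, and the genotypes overlapped. Cd83, an activation marker of antigen-presenting cells, had a region 6.51 kb from the gene with 721 and 468 bases in WT and 386 and 326 bases in KO. Marco, a scavenger receptor, had a region 22.4 kb upstream with 467 and 341 bases in WT and 316 and 361 bases in KO. Cd44, Cd69, Fpr2, Slamf7, Icam1, Tnfrsf1b and Tnfrsf9 were the others.

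Kinase, interferon and mediator enzyme genes had shares of gained regions closer to the background of 1.09%. MAP kinases and phosphatases had 3 of 210 (1.43%), at Map2k6, Dusp2 and Mapk14. Map2k6 encodes a kinase that activates p38, and its region inside the gene measured 647 and 702 bases in WT and 1134 and 1146 bases in KO. Dusp2 encodes a phosphatase of MAP kinases, and its region 12.6 kb upstream measured 480 and 851 bases in WT and 366 and 320 bases in KO. These 2 regions had opposite orders of the genotypes, with no overlap in either. Interferon response genes had 3 of 192 (1.56%), at Usp18, Socs3 and Cmpk2. Mediator enzymes had 3 of 163 (1.84%), at Pfkfb3, at Ptges, which makes prostaglandin E2, and at the cystine transporter gene Slc7a11. Immediate early factors had 2 of 197 (1.02%, near the background), both upstream of Klf6. Nos2, the inducible nitric oxide synthase gene, had no gained region among 3.

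Outside the LPS lists, single gained regions stood at Ciita, the regulator of MHC class II transcription, at the heat shock gene Hspa1b among osmotic stress genes, and at Mki67 among cell cycle genes. The Ciita region, inside the gene, measured 348 and 306 bases in WT and 279 and 263 bases in KO. Macrophage identity genes had 4 of 317 regions gained (Tfec, Mitf, Cebpb and Lpl), close to the background of 1.09%. Alternative activation genes had none of 110 and housekeeping genes none of 56.

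A minority of gained regions lay near one another, a larger share than among lost regions. Within 25 kb of another gained region stood 120 of the 959 (12.5%), in 48 pairs and 8 groups of 3. Of the 4056 regions of any kind within 25 kb of a gained region, 2.96% were gained, against 1.1% of all regions. For the lost set, 40 of 810 (4.94%) stood within 25 kb of another, in 20 pairs, and 1.39% of their neighbours were lost, against 0.928% of all regions. Among the 3936 neighbours that were not gained themselves, 2.13% were called in 3 LPS libraries and no untreated one, against 1.17% of all other regions, and 0.686% were lost, against 0.939%. Regions called in all 8 libraries made up 49.4% of these neighbours and 41.7% of all other regions.

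The 8 groups of 3 lay at Plekhm3, Tnfaip3, Ikzf1, Arhgap22, Lpp and Plscr1, at the Bcl2a1 genes, and upstream of Mir155. At Plscr1, which encodes an interferon-inducible phospholipid scramblase, 3 of the 6 assigned regions were gained. The widest of the Plscr1 group, 4.83 kb inside the gene, measured 645 and 639 bases in WT and 629 and 400 bases in KO. Ikzf1 encodes the transcription factor Ikaros. The group of 3 at Ikzf1 spanned 30.3 kb, and its widest region measured 635 and 568 bases in WT and 512 and 358 bases in KO. The Mir155 group spanned 20.7 kb and was nearest to the protein-coding gene Mrpl39. Its 3 regions measured 559 and 520, 622 and 607, and 166 and 176 bases in WT, and 438 and 364, 447 and 506, and 299 and 199 bases in KO. The first 2 of these were wider in both WT libraries and the third was wider in both KO libraries.

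**Figure D3:**
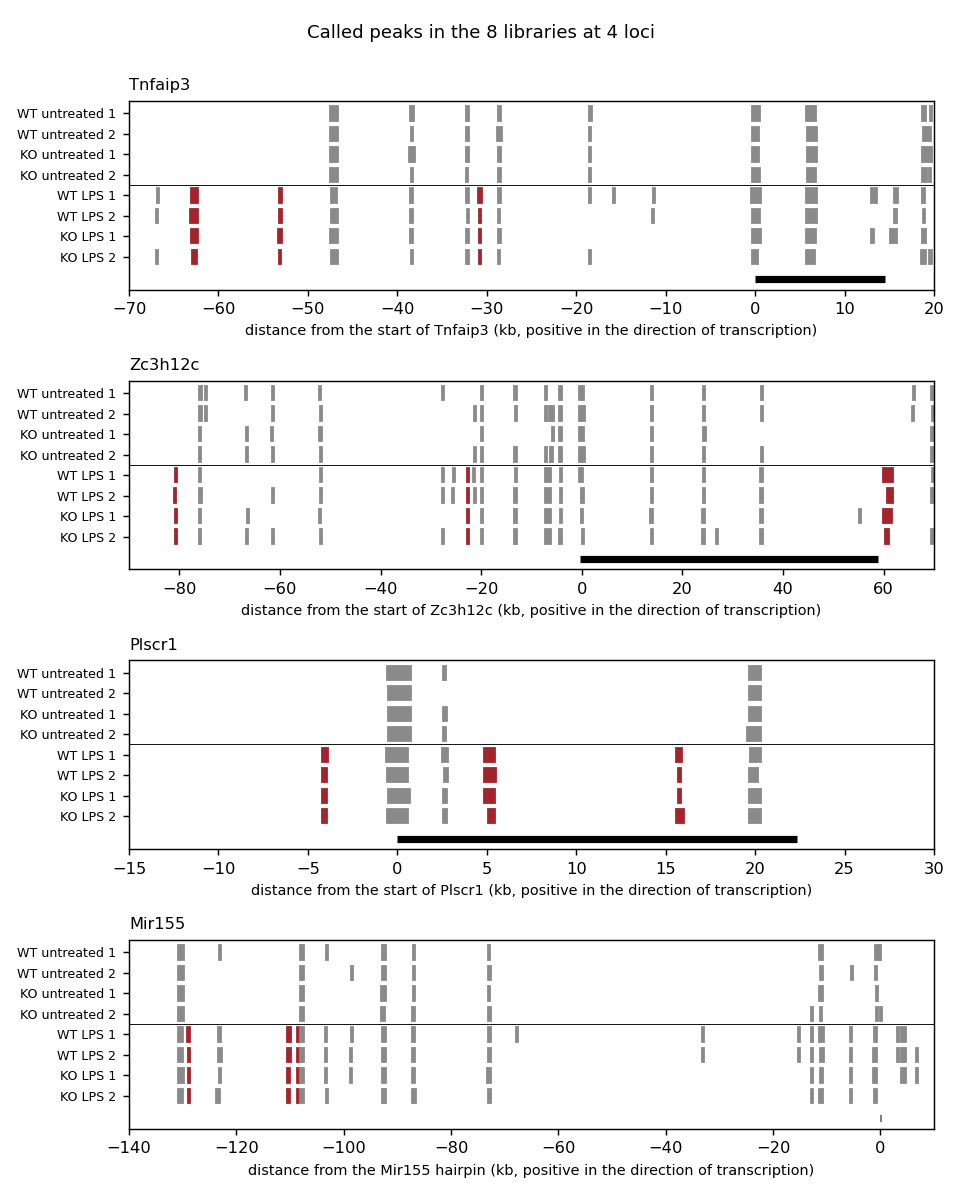
Peaks called in each of the 8 libraries (rows, untreated above the line and LPS below) by distance from the gene start or hairpin (x axis, kb) at Tnfaip3, Zc3h12c, Plscr1 and Mir155; narrow peaks are drawn at a minimum width. Red peaks belong to gained regions, grey peaks to other regions, and the black bar is the gene; at Tnfaip3 the 3 red columns lie 30.6 to 62.3 kb upstream, between grey columns present with and without LPS.

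The Bcl2a1 genes and Birc3 are described because several gained regions were assigned to them, so their counts were not set against other genes. Bcl2a1a, Bcl2a1b and Bcl2a1d, copies of an anti-apoptotic Bcl-2 family gene, had 5 together, with widths from 188 to 574 bases. The neighbouring models Gm2396 and Gm10634 had 1 each. The copies are near-identical, so the reads behind these peaks could have been divided among them and the count per copy is uncertain. Birc3, which encodes the inhibitor of apoptosis cIAP2, had 2. The one inside Birc3 measured 869 and 682 bases in WT and 754 and 500 bases in KO, and the one 22.9 kb upstream measured 667 and 797 bases in WT and 430 and 194 bases in KO. The genotypes overlapped at the first and did not at the other.

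Gained regions were narrow, and narrower in KO than in WT libraries. The median width over the 959 regions was 362 and 335 bases in the 2 WT LPS libraries and 305 and 276 bases in the 2 KO LPS libraries. Both WT medians exceeded both KO medians, with means of 348.5 ± 19.1 (SD, n = 2) and 290.5 ± 20.5 (SD, n = 2). Over all 40095 regions with a peak in every LPS library the medians were 515 and 516 bases in WT and 505 and 490 bases in KO. The KO LPS lists were also shorter, with 54911 and 54027 peaks against 57691 and 55506 in WT, and their part in the width difference was not tested. With 2 libraries in each group, an exact permutation test cannot give a two-sided p below 0.333.

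**Figure D4:**
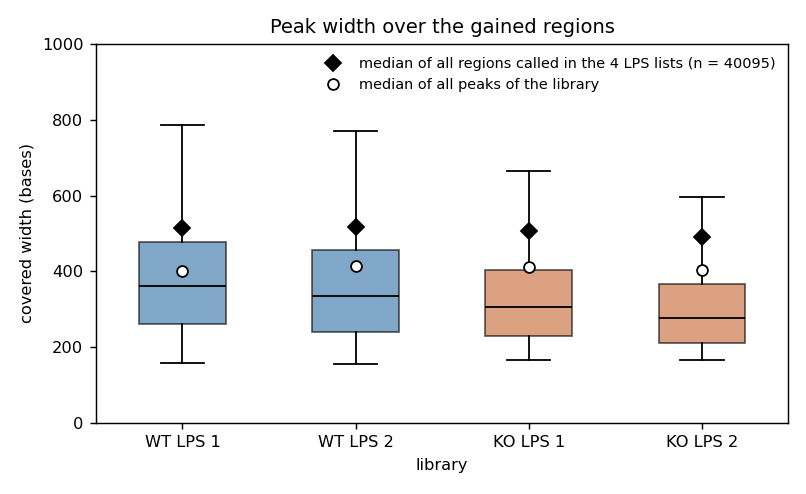
Covered width in bases (y axis) of the 959 gained regions in each LPS library (x axis), as boxes from the first to the third quartile with the median as a line and whiskers to the last value within 1.5 box lengths. Box medians are 362, 335, 305 and 276 bases, while diamonds (all 40095 regions called in the 4 LPS libraries) stay between 490 and 516 and circles (all peaks of the library) between 402 and 415.

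Region by region, the WT width exceeded the KO width by a median of 0.20 on the log2 scale (1.15-fold), against 0.04 over all 40095 regions. Both WT libraries were wider than both KO libraries at 372 gained regions (38.8%), against 25.4% of all regions. The reverse held at 84 (8.76%), against 15.1% of all regions, and the genotypes overlapped at 503. After each library was centred on its median width, the shares were 34.1% and 10.7% for gained regions and 18.1% and 22.1% for all regions. Centring sets the balance over all regions by construction. At an adjusted p of 0.05 in limma's test with Benjamini-Hochberg adjustment, 0 regions passed in either direction (0%), gained or not, and the lowest adjusted p was 0.335. At an unadjusted p under 0.05 stood 167 gained regions (17.4%), 148 wider in WT and 19 wider in KO, against 9.54% of all regions (5.97% wider in WT and 3.58% wider in KO). These counts rested in part on single libraries, with 103 wider in WT and 31 wider in KO without WT LPS replicate 1, and 110 and 37 without KO LPS replicate 2.

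The median WT minus KO difference was smaller where more untreated libraries shared the region. It was 0.20 on the log2 scale at none, 0.14 at 1, 0.09 at 2, 0.06 at 3 and 0.04 at all 4. By mean width the difference varied. At a mean width of 350 to 500 bases, both WT libraries were wider at 49.4% of 247 gained regions and at 25.2% of 9966 other regions, and the median difference was 0.29 against 0.05. At 150 to 250 bases the shares were 27.3% of 227 and 18.0% of 2413, and the medians 0.06 and -0.03. Inside genes the 4 library medians were 359.5, 319, 299 and 264 bases, and over 100 kb from a gene they were 352, 368, 304 and 286 bases, so the genotypes kept the same order in both. Widths agreed less between libraries than over all regions. Pearson's r of log2 width across the 959 regions, which share libraries and are not replicates, was 0.69 between WT libraries, 0.60 between KO libraries and 0.55 to 0.60 between genotypes, against 0.81 to 0.85 over all regions.

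**Figure D5:**
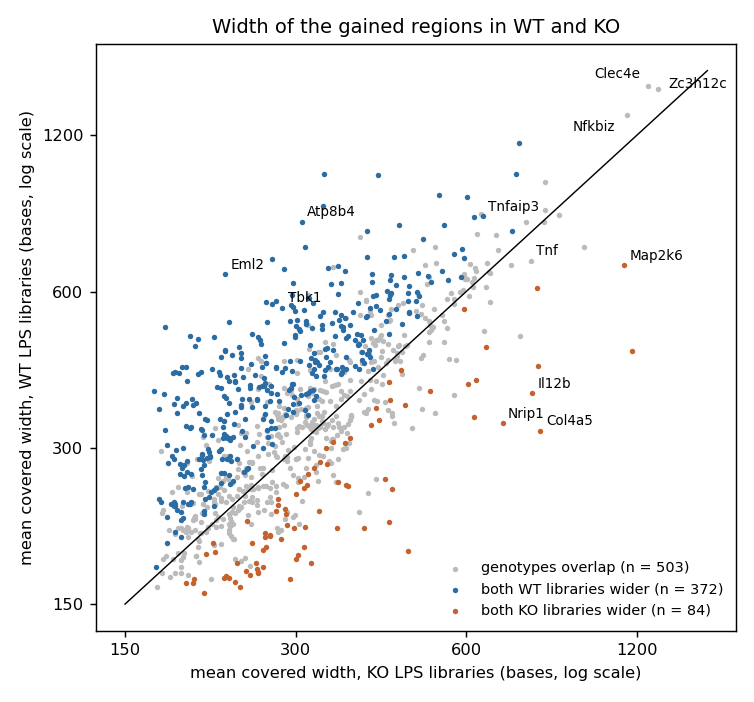
Mean covered width in the 2 WT LPS libraries (y axis, bases, log scale) against the mean in the 2 KO LPS libraries (x axis, bases, log scale) for each of the 959 gained regions, with equality as a line. Blue points (372) are wider in both WT libraries and orange points (84) in both KO libraries; most blue points have KO means below 600 bases, and Map2k6, Il12b, Col4a5 and Nrip1 stand out below it.

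The regions with the largest differences among those whose genotypes did not overlap are named here as a description, since none passed the adjusted threshold. Wider in WT were regions assigned to Tnfaip8, Eml2, Atp8b4, Birc3 and Cul3. The Eml2 region, inside the gene of a microtubule-associated protein, measured 712 and 585 bases in WT and 225 and 225 bases in KO (difference 1.52 ± 0.15 SE on the log2 scale). Cul3 encodes the scaffold of a ubiquitin ligase. The region assigned to it, 77.8 kb upstream, measured 480 and 504 bases in WT and 202 and 188 bases in KO. The Atp8b4 region, 17.4 kb downstream of the gene, measured 831 and 806 bases in WT and 373 and 242 bases in KO. Wider in KO were regions assigned to Col4a5, Nrip1 (61.9 kb downstream), Il12b, Kynu and Cers6. The Il12b region described above differed by -1.04 ± 0.15 (SE) on the log2 scale, WT minus KO, with an adjusted p of 0.349 in limma's test. Col4a5 encodes a collagen chain, and its region measured 224 and 424 bases in WT and 893 and 731 bases in KO. Kynu encodes an enzyme of tryptophan breakdown, and its region measured 193 and 238 bases in WT and 574 and 304 bases in KO.

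Widths just outside the rule were close to those of the gained regions on the untreated side of it and smaller on the LPS side. The median gained region was 431 bases long, its median LPS peak was 315 bases, 952 of the 959 had a stretch shared by the peaks of all 4 LPS libraries, and the median shared stretch was 209 bases. A peak under 200 bases in at least 1 LPS library occurred in 333 gained regions (34.7%), against 10.8% of the other regions called in all 4. Just outside the rule, 612 regions had a peak in all 4 LPS libraries and 1 untreated library, with LPS medians of 362, 327.5, 312 and 291 bases and a median untreated peak of 236 bases. Another 1014 were called in 3 LPS libraries and no untreated one, with a median region of 347 bases and a median called peak of 246 bases, both below the gained values. Of these 1014, the missing library was KO replicate 2 in 478, KO replicate 1 in 280, WT replicate 2 in 187 and WT replicate 1 in 69. No untreated peak lay within 500 bases of 918 of the 959 gained regions, and Tbk1 and Plekhm3 had a region among the others. When a library had to cover at least 50% of a region to count, 665 of the 959 remained. Of 112 regions picked for naming, 64 remained. Among those that did not were regions at Zc3h12c, Nfkbiz, Traf1, Tbk1, Rel, Tnf, Il12a, Il12b, Dusp2, Cd83 and Birc3. Regions at Tnfaip3, Ikzf1, Lpp, Plscr1, Slc7a11 and Pfkfb3 were also lost. So was every region named above for the largest differences between WT and KO, in either direction.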

How the data were processed

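The deposited files are 8 peak lists, 1 per library, and the authors' values are peak positions only. Bowtie2 2.3.0, Picard and MACS2 2.1.1 and the build GRCm38 (mm10) are named in the submitters' processing notes, without settings, and the peak threshold is not stated there. Peaks were taken per library. Peaks of all libraries on 21 chromosomes were merged with an overlap of at least 1 base. The covered width of a region in a library is the number of its bases inside that library's peaks. Regions within 100 kb were assigned to the nearest protein-coding gene body of RefSeq GRCm38.p6, and listed gene starts came from its table of promoter windows, which is not complete. Log2 covered widths of the 40095 regions called in all 4 LPS lists were compared between WT and KO. The comparison used limma 3.58.1 in R 4.3.3, with no block and Benjamini-Hochberg adjustment over all of these regions. The test was first checked on simulated widths with a change larger than any difference named here. That check does not show its power at smaller differences. A wider peak can reflect deeper sequencing as well as more open DNA, and depth is unknown. The members and gene lists (426 genes in 23 lists, 3 of them unmatched) were chosen with earlier results of these data known. Named regions were the widest, up to 5 genes per list, the largest clear differences in either direction, the genes with 3 or more gained regions and a few set genes; others are marked as chosen after their values were seen. Alternatives covered the overlap rule, merging, list length, gene table, distances, width measure and each library left out.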

Additional observations from a re-analysis of the deposited data

How the results depend on the processing

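Of the 89 alternative values for the main results, 78 stayed close and 11 moved. Requiring 50% of the region to be covered gave 1004 regions, with 14.9% near another. Keeping only the widest 27013 peaks of each list gave 536, of which 83 were among the 959, with 47.8% inside a gene, 451 genes and 5.22% near another; this setting drops narrow peaks by construction. Leaving out 1 library gave 1030 to 1439 regions, the most without KO LPS replicate 2. The share near another ran from 12.4% to 15.5% and the gained share at the LPS lists from 3.32% to 5.15%, both highest without that library, where 1.66% of all assigned regions were gained. All annotated genes put 62.6% inside a gene, and linking within 10 or 100 kb put 7.19% or 25.7% near another. No region passed the adjusted width test under any of the 10 width alternatives (lowest adjusted p 0.289 to 0.580), and the median WT minus KO difference over gained regions ran from 0.14 to 0.25. Deviations of same-numbered WT and KO libraries correlated at 0.04 over gained regions. A correlation across regions cannot show a shift common to a whole library. Replicate 1 had the larger median width over gained regions in both genotypes (362 against 335 bases in WT, 305 against 276 bases in KO). Whether same-numbered WT and KO samples were handled together is not stated. Titles also give an untreated and an LPS library of each genotype a common number; whether they came from 1 animal is not stated, and no test set untreated against LPS libraries. With the replicate block, 0 regions passed, the lowest adjusted p was 0.557, and 3453 had an unadjusted p under 0.05, against 3827 without it. The 2 libraries a group and the unknown depth limit all width comparisons.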
